A study of Homo sapiens with 9 samples.

Results

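A long 3′ UTR, the part of an mRNA that follows its stop codon, was followed here in 832 coding transcripts of K562 cells, a human erythroleukemia line grown from a patient with chronic myelogenous leukemia. For each gene the protein-coding transcript with the highest mean TPM over the 3 control libraries was taken, so that members were chosen by SCR levels, at 1 TPM or more, where TPM is the abundance of a transcript per length and relative to all others. Of the 203027 transcripts in each table, 9667 were such a transcript of a gene, 9345 had a complete annotated coding part, 6938 of these kept their length in the annotation used here to within 100 bases, and 6638 had no exon junction after the stop codon. The 832 members are those of the 6638 whose 3′ UTR held 3000 bases or more. A further 32 transcripts had a 3′ UTR of that length but a junction in it and were left out, since a junction behind the stop codon is itself a signal for decay. The comparison set was 2339 transcripts with a 3′ UTR under 500 bases, of which 187 could be paired with a member of nearly equal transcript length, within 0.2 on the log2 scale.

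The 9 libraries of poly(A)-enriched RNA fell into 3 groups of 3. Cells of the SCR group received a nontargeting siRNA, cells of the DHX34 knockdown a pool of siRNAs against DHX34, and cells of the UPF1 knockdown an siRNA against UPF1, and all were harvested on day 4. The labels name no other treatment or alteration of the cells, and siRNA lowers an mRNA without removing it. SCR levels chose which transcript stood for a gene, so both comparisons with SCR share libraries with that choice, while setting UPF1 against DHX34 knockdown does not use them.

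Nonsense-mediated decay (NMD) degrades mRNAs on which a ribosome terminates in an unusual setting. The best known setting is an exon junction complex left behind a stop codon, and a long distance between the stop codon and the poly(A) tail is another. UPF1, an RNA helicase at the core of the pathway, binds along 3′ UTRs and is displaced by translating ribosomes, so that long 3′ UTRs carry more of it, and proteins bound near the stop codon can shield some long 3′ UTRs from decay. DHX34 is a helicase that associates with UPF1 and has been placed in the same pathway and in pre-mRNA splicing. The question asked of the data was whether mRNAs with long 3′ UTRs and no junction behind the stop codon differed between the groups from mRNAs of like length whose 3′ UTR is short.

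The point at which the 3′ UTR begins is shown for 12 members on which the results below turn. The letters are those of the GENCODE release 44 transcripts on GRCh38, sense strand, with 12 bases of coding sequence in front of the stop codon, the stop codon in capitals and 15 bases of the 3′ UTR behind it.
PRKAB2: tacaagcccattTGAagggatcccttcttg
FKBP14: cacgatgagttaTAGagatacatctaccct
WDFY1: ttttctccgcacTGAtctgagagctgggcg
SMG1: acagcctgggtgTGAatggcaagacagtag
RUNX1: tggaggccctacTGAggcgccaggcctggc
SLC7A11: gaagataagttaTGAactaatggacttgag
XRN1: aaaccttctgagTAAatttggctcttagaa
CCND2: gatatcgacctgTGAggatgccagttgggc
PARD6B: atcataacattaTGAaaccgtggtttgaat
SNPH: ggctcccagctcTGAgggggcccattctgg
IGF1: aactacaggatgTAGgaagaccctcctgag
TRIM44: gaagaggacacaTGAaggcttgctaccccc

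In each of these transcripts the whole 3′ UTR lies in the last exon. On GRCh38 it covers chr1:147155106-147159564 in PRKAB2, chr7:30010587-30014734 in FKBP14, chr2:223875348-223878670 in WDFY1 and chr16:18804860-18809568 in SMG1. It covers chr21:34787801-34792134 in RUNX1, chr4:138164097-138171955 in SLC7A11, chr3:142306607-142311510 in XRN1 and chr12:4300010-4305353 in CCND2. It covers chr20:50750489-50753741 in PARD6B, chr20:1306055-1309328 in SNPH, chr12:102395874-102402506 in IGF1 and chr11:35806386-35818007 in TRIM44. PRKAB2, FKBP14, WDFY1, SMG1, RUNX1, SLC7A11, XRN1 and IGF1 lie on the minus strand and CCND2, PARD6B, SNPH and TRIM44 on the plus strand. Over all 832 members the stop codon was TGA in 391 (47.0%), TAA in 248 (29.8%) and TAG in 193 (23.2%). Among the 6638 transcripts the shares were 50.5%, 28.4% and 21.1%, with TGA the most frequent in both.

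The members differed from the short set in more than the 3′ UTR. Their median 3′ UTR was 4152 bases in a transcript of 6290 bases, with a coding part of 1539 bases, 9 exons and a GC content of 42.6%. The 2339 short transcripts had a median 3′ UTR of 238 bases, a length of 1479 bases and a GC content of 53.5%. Pairing on length removed the difference in length and left others in place. The 187 paired members had a median length of 4596 bases, a coding part of 990 bases and 6 exons, whereas their 187 short partners of 4391 bases had a coding part of 3840 bases and 28 exons. GC content stayed apart as well, at 41.5% in the paired members and 55.2% in their partners, so 152 pairs were also made on length and on GC content to within 3 percentage points. In those the GC content was 48.5% and 49.0%, and the exon number still 6 against 28.

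Sequence elements to which RNA-binding proteins attach stood in a larger share of the members than of the short set. Per 1000 bases of 3′ UTR, ATTTA and TCTTTCTT differed little between the sets. By the same measure TGTANATA was rarer and CACACACA more frequent in the members than in the whole short set. ATTTA, the core of AU-rich elements, stood in the 3′ UTR of 98.1% of the members and of 32.2% of the short set, but per 1000 bases of 3′ UTR there were 2.37 and 2.02. In the first 200 bases behind the stop codon ATTTA stood in 26.6% of the members and in 25.2% of the 1371 short transcripts with a 3′ UTR of 200 bases or more. TGTANATA, the Pumilio element, stood in 57.2% of the members at 0.221 per 1000 bases, against 6.97% and 0.326 in the short set. CACACACA, bound by hnRNP L, stood in 24% of the members at 0.188 per 1000 bases, against 0.941% and 0.104. TCTTTCTT, a pyrimidine tract of the kind bound by PTBP1, stood in 26.9% at 0.0833 per 1000 bases, against 1.71% and 0.0793. All 4 were searched on the sense strand only, and none contains another. Of the 6638 transcripts 64.4%, 23.8%, 6.70% and 9.13% held them in the same order.

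Members were low to moderate in level. The median over the 832 members was 5.02 TPM in SCR, with a range from 1.00 to 149 TPM, and 19.0 TPM in the short set. The chosen transcript held a median of 69.1% of its gene's TPM, so a sum over all transcripts of the gene, used for the main test, also counts forms with other 3′ UTRs. The 5 members highest in SCR were MTPN (149 TPM), a protein linked to actin capping and muscle growth, CRKL (131 TPM), the adaptor phosphorylated by BCR-ABL, EIF1AX (102 TPM), a translation initiation factor, NUCKS1 (94.3 TPM), a chromatin protein, and SPCS3 (70.4 TPM), a signal peptidase subunit.

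The libraries held 73478797 to 103625443 expected counts. The siRNA targets, which are not members, went the way of the labels. UPF1 was at 49.2 ± 2.59 TPM in SCR, 53.9 ± 1.09 upon DHX34 and 23.1 ± 0.168 upon UPF1 knockdown (SD, n = 3), and DHX34 at 18.7 ± 0.671, 9.98 ± 0.925 and 22.4 ± 0.519 TPM in the same order. On the fitted log2 scale UPF1 fell by 1.31 (edgeR adjusted p = 2.41e-10) and DHX34 fell by 1.23 in its own knockdown (edgeR adjusted p = 3.33e-07). Of 9 markers of the erythroleukemia line, all were present, from EPOR at 12 to 19.5 TPM to HBG2 at 7222 to 13174 TPM. Of the markers of other cells MS4A1 and KRT5 were at 0, CD3E, COL1A1 and PECAM1 were at most 4.03 TPM, LYZ lay between 11.8 and 32.8 TPM and EPCAM between 68.1 and 80.4 TPM. LYZ was highest in the DHX34 knockdown (29.7 to 32.8 TPM, at most 14.6 in the other groups), and HBG1, HBG2, HBA1 and HBZ were lowest in the UPF1 knockdown, and the part of either in the results was not tested. The mean fragment length differed by group, being 255 bases in each SCR library, 259 to 260 upon DHX34 and 252 to 257 upon UPF1 knockdown, and its part in the results was not tested. In bulk RNA, fewer cells with an mRNA and less of it per cell cannot be told apart.

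Among the 832 members the UPF1 knockdown raised 233 genes (28%) and lowered 62 (7.45%) against SCR, by edgeR on expected counts summed over the transcripts of a gene, called where the adjusted p did not exceed 0.005. Over all 17184 genes tested 12.4% were called up and 12.9% down. The changes were small: the median over the members was 0.08 on the log2 scale, beside 0.02 over all genes, the 233 called up had a median of 0.31, and 2 members rose more than 2-fold and 21 more than 1.5-fold. All 832 members passed the filter on low counts. When the trends of the log2 fold change with transcript length and GC content over all genes were removed before the test, 150 members (18%) were called up and 142 (17.1%) down, with a median of -0.01, beside 11.1% and 14.9% of all genes in that fit. Rises and falls were then near equal in number. The members' median 3′ UTR was 4152 bases in a median transcript of 6290. Removing a trend with transcript length can therefore also remove differences that go with the 3′ UTR, and the 2 were not separated. Counts rebuilt from gene TPM and a fixed effective length per gene gave 154 up and 20 down, beside 7.92% and 8.43% of all genes. Such counts adjust for differences in effective length between libraries. They do not remove a trend of the fold change with transcript length. Without any 1 library, 203 to 249 members were called, with rises in front each time. The falls were 25 without UPF1 knockdown replicate 2, 32 without replicate 1, 41 without replicate 3 and 35 without SCR replicate 3, and 165 of the 233 rises and 23 of the 62 falls were called in all 6 such fits.

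The largest rises with UPF1 knockdown were in genes of several functions. PRKAB2, a regulatory subunit of the energy sensor AMPK, had 11.3, 12 and 9.81 CPM (counts of the gene relative to the TMM-scaled library total) in the SCR libraries, 16.1, 15.8 and 17 upon DHX34 and 25.4, 26.1 and 25 upon UPF1 knockdown. The 3 groups did not overlap, with the UPF1 knockdown on top and the DHX34 knockdown between it and SCR. Its log2 fold change was 1.20 (adjusted p = 1.79e-07 in edgeR, SE 0.07) with UPF1 and 0.56 (adjusted p = 0.000691 in edgeR, SE 0.08) with DHX34 knockdown. FKBP14, a prolyl isomerase of the endoplasmic reticulum that helps collagen fold, had 15.8, 14.1 and 15.6 CPM in SCR, 17.3, 19.1 and 18.6 upon DHX34 and 30.9, 30.6 and 32.2 upon UPF1 knockdown. The UPF1 knockdown libraries stood well above both other groups, with a log2 fold change of 1.04 (adjusted p = 6.51e-08 in edgeR, SE 0.05) against SCR.

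The endosomal protein gene WDFY1 was raised in both knockdowns, from 20.7, 20.9 and 21.6 CPM in SCR to 34.6, 35.3 and 37.8 with DHX34 and 38.4, 37.7 and 40.1 with UPF1 knockdown. Its log2 fold changes were 0.77 (adjusted p = 3.49e-06 in edgeR, SE 0.05) and 0.87 (adjusted p = 5.22e-08 in edgeR, SE 0.04), and the 2 knockdowns overlapped. PPM1E, a phosphatase that acts on calmodulin-dependent kinases, went in opposite directions, at 12 ± 0.412 CPM in SCR, 9.19 ± 0.340 upon DHX34 and 21.1 ± 0.725 upon UPF1 knockdown (SD, n = 3), and its fall with DHX34 was called in none of the fits without 1 library. UNC119B, a carrier of lipid-modified ciliary proteins, rose by 0.82, GXYLT1, which adds xylose to Notch receptors, by 0.79, and DBT, a subunit of branched-chain ketoacid dehydrogenase, by 0.71 on the log2 scale with UPF1 knockdown. H2BC15, which encodes a histone H2B, rose by 0.92, but the member transcript held 15.8% of its gene's TPM in SCR, so most of that sum came from other forms. In all 5 the SCR and UPF1 knockdown libraries did not overlap, as the rule that named them required. All 8 of these rises were called in each fit without 1 library and with the trends removed.

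The falls with UPF1 knockdown were smaller than the rises, and no member fell more than 1.5-fold. CCND2, the D-type cyclin that activates CDK4 and CDK6, had 65.3, 64.4 and 69.1 CPM in SCR, 46.8, 44.1 and 44.3 upon DHX34 and 49, 44.3 and 45.7 upon UPF1 knockdown. Both knockdowns lay below SCR by a like amount, with log2 fold changes of -0.52 (adjusted p = 2.79e-06 in edgeR, SE 0.04) for UPF1 and -0.55 (adjusted p = 1.72e-05 in edgeR, SE 0.04) for DHX34. PARD6B, a scaffold of the cell polarity complex, was at 9.73 ± 0.410 CPM in SCR and 6.79 ± 0.161 in the UPF1 knockdown (n = 3, SD), that is a log2 fold change of -0.52 (adjusted p = 0.000102 in edgeR, SE 0.07). CDCP1, a membrane substrate of Src kinases, fell in the UPF1 knockdown, from 25.3 ± 0.321 to 17.7 ± 0.132 CPM, and was at 26.2 ± 0.746 in the DHX34 knockdown (SD, n = 3). SVIP, an inhibitor of ER-associated degradation, had a log2 fold change of -0.49, SH3PXD2A, a scaffold of invadopodia, of -0.46, SPRY4, an inhibitor of receptor tyrosine kinase signaling, of -0.43, and SLC6A6, the taurine transporter, of -0.43. The libraries of the UPF1 knockdown lay below all SCR libraries in each of these genes, as the rule that named them required.

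**Figure D1:**
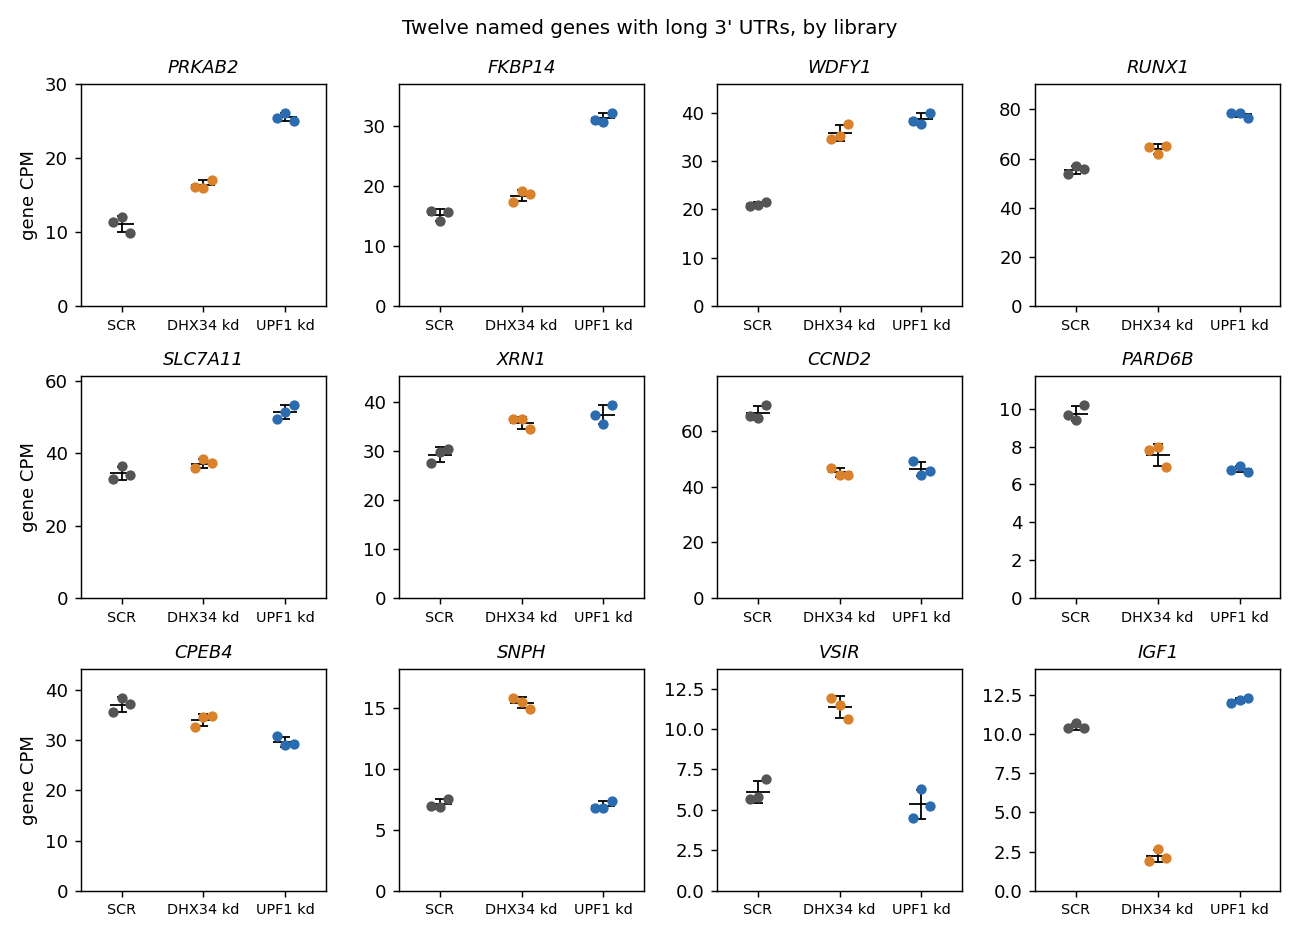
Gene CPM (counts relative to the TMM-scaled library total, vertical axes from 0) of 12 named members in each of the 9 libraries, with the mean and SD of each group of 3. PRKAB2, FKBP14 and SLC7A11 stand highest in the UPF1 knockdown, CCND2 is lower in both knockdowns, SNPH and VSIR are high and IGF1 is low in the DHX34 knockdown alone of the groups.

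The DHX34 knockdown raised 107 members (12.9%) and lowered 20 (2.40%), beside 5.54% and 4.86% of all 17004 genes tested. The median log2 fold change of the members was 0.07, beside 0.02 over all genes, and with the length and GC trends removed 66 (7.93%) were called up and 60 (7.21%) down with a median of -0.03, beside 3.93% and 4.99% of all genes. These counts rested on single libraries more than those of UPF1. They came to 66 without SCR replicate 1, 84 without SCR replicate 2, 73 without SCR replicate 3 and 77 without DHX34 knockdown replicate 1, with rises in front in each.

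SNPH, which anchors mitochondria to microtubules, rose most with DHX34 knockdown, from 6.93, 6.85 and 7.55 CPM in SCR to 15.8, 15.5 and 14.9, while the UPF1 knockdown libraries were at 6.76, 6.79 and 7.39. The UPF1 knockdown overlapped SCR, and the log2 fold changes were 1.12 (adjusted p = 4.25e-06 in edgeR, SE 0.07) with DHX34 and -0.03 (adjusted p = 0.803 in edgeR, SE 0.08) with UPF1. VSIR, the immune checkpoint protein VISTA, had 5.66, 5.79 and 6.91 CPM in SCR, 11.9, 11.5 and 10.6 upon DHX34 and 4.50, 6.29 and 5.26 upon UPF1 knockdown. PAQR8, a membrane progestin receptor, showed the same order of groups, at 7.51 ± 0.739, 14.6 ± 1.09 and 7.27 ± 0.616 CPM (SD, n = 3). In these 3 genes the DHX34 knockdown stood apart from both other groups. VANGL2, a planar cell polarity protein, TTPAL, a relative of the vitamin E transfer protein, and FYCO1, which couples late endosomes to kinesin, rose in both knockdowns, by 0.86, 0.83 and 0.80 with DHX34 and by 0.59, 0.58 and 0.61 with UPF1 on the log2 scale. ZCCHC24 had a log2 fold change of 0.82 with DHX34 and 0.18 with UPF1 knockdown, the latter not called (edgeR adjusted p = 0.0316).

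The largest fall of any member was in IGF1, the insulin-like growth factor, with 10.4, 10.7 and 10.4 CPM in SCR and 1.91, 2.68 and 2.09 in the DHX34 knockdown. The UPF1 knockdown libraries held 12, 12.2 and 12.3 CPM, above SCR, and the log2 fold changes were -2.24 (adjusted p = 1.84e-06 in edgeR, SE 0.13) with DHX34 and 0.21 (adjusted p = 0.0144 in edgeR, SE 0.06) with UPF1. The member transcript held 35.9% of the TPM of IGF1 in SCR. EREG, the EGF-family ligand epiregulin, was at 6.04 ± 0.853 CPM in SCR, 4.03 ± 0.149 with DHX34 and 7.02 ± 0.0717 with UPF1 knockdown (SD, n = 3). Its fall was called at -0.58 (adjusted p = 0.00455 in edgeR, SE 0.12), yet in 5 of the 6 fits without 1 library it was not. BTG1, an antiproliferative protein that binds a deadenylase, fell by 0.55 on the log2 scale with DHX34 knockdown and had a log2 fold change of -0.10 with UPF1 knockdown (edgeR adjusted p = 0.0312). UBE2D4, a ubiquitin-conjugating enzyme, had log2 fold changes of -0.49 and -0.38 in the DHX34 and UPF1 knockdowns and was called in both. Of the 6 fits without 1 library its DHX34 call held in 3 and its UPF1 call in 5. MOB3B, of the MOB family of kinase activators, TMEM181 and VSTM4 had log2 fold changes of -0.41, -0.39 and -0.38 with DHX34 knockdown. The call of VSTM4 held in 3 of the 6 fits without 1 library, and those of MOB3B and TMEM181 in all 6.

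Each knockdown was set against the same 3 SCR libraries, so the calls below share their controls. Of the 832 members 63 were called up in both, 166 up with UPF1 alone, 43 up with DHX34 alone, 7 down in both, 54 down with UPF1 alone, 9 down with DHX34 alone and 485 in neither. Another 4 were up with UPF1 and down with DHX34, and 1 was the reverse. Over the 16752 genes tested in both comparisons 1.94% were up in both, 10.3% up with UPF1 alone, 3.15% up with DHX34 alone, 3.12% down in both, 9.6% down with UPF1 alone, 1.43% down with DHX34 alone and 0.883% opposite. The members' shares in the same order were 7.57%, 20.0%, 5.17%, 0.841%, 6.49%, 1.08% and 0.601%. These 5 were picked out after their values had been seen. They were DHX33, an RNA helicase of ribosome synthesis (0.24 with UPF1, -0.38 with DHX34), KLF6, a zinc finger transcription factor (0.45 and -0.29), PPM1E (0.81 and -0.38), TMEM181 (0.22 and -0.39) and, the other way, SPN, the sialomucin CD43 of blood cells (-0.20 and 0.30), all as log2 fold changes. Setting the UPF1 knockdown directly against the DHX34 knockdown called DHX33, KLF6, PPM1E and TMEM181 up and SPN down. Those directions followed from picking genes that went opposite ways against SCR, so they add no separate evidence. The fall of PPM1E with DHX34 knockdown held in 0 of the 6 fits without 1 library. The rise of TMEM181 with UPF1 knockdown against SCR was not called with the length and GC trends removed (edgeR adjusted p = 0.0211).

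That direct comparison uses no SCR library and so nothing that chose the members. With UPF1 knockdown 127 members (15.3%) were higher and 67 (8.05%) lower than with DHX34 knockdown, beside 9.89% and 7.47% of all 17435 genes tested. The median was 0.03 on the log2 scale, beside 0.01 over all genes, and with the length and GC trends removed 130 (15.6%) were higher and 87 (10.5%) lower, beside 9.97% and 9.27% of all genes. IGF1 had the largest difference at 2.47 (adjusted p = 1.01e-07 in edgeR, SE 0.12), followed by PPM1E at 1.21 (adjusted p = 1.40e-07 in edgeR, SE 0.06). EREG, FKBP14 and UBXN2B, a cofactor of the ATPase p97, were higher with UPF1 knockdown by 0.81, 0.78 and 0.79. SNPH at -1.13 (adjusted p = 6.08e-07 in edgeR, SE 0.07), VSIR at -1.07 (adjusted p = 3.77e-05 in edgeR, SE 0.11) and PAQR8 (edgeR adjusted p = 7.45e-06) were lower, as were GALNT6, which starts mucin-type O-glycans (-0.87), and PPP1R16B, a regulator of protein phosphatase 1 (-0.68). The number called was 125 without UPF1 knockdown replicate 2 and 129 without replicate 1, and 250 without DHX34 knockdown replicate 3, with more members higher than lower in each. The members lower moved most, to 37, 34 and 41 without UPF1 knockdown replicate 1, 2 and 3 and to 43 without DHX34 knockdown replicate 1, while 96 were lower without DHX34 knockdown replicate 3.

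The libraries of 2 groups did not overlap for 521 of the 832 members (62.6%) in UPF1 knockdown against SCR, for 457 (54.9%) in DHX34 knockdown against SCR and for 464 (55.8%) between the knockdowns. Over all genes tested the same was true of 50.6%, 41.4% and 46%. The members thus separated somewhat more often than genes at large in each comparison, although the genes at large include many below 1 TPM, and every member called was among those that did not overlap.

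Among the 5 members with the longest 3′ UTRs at 10 TPM or more the differences with UPF1 knockdown were small. TRIM44, a TRIM-family protein, with 11622 bases, rose from 129.8, 139.6 and 137 CPM in SCR to 158, 158 and 156 with UPF1 knockdown, a log2 fold change of 0.21 (adjusted p = 0.000273 in edgeR, SE 0.03). CDK6, the partner of CCND2, with 10219 bases, rose by 0.23 (adjusted p = 0.000852 in edgeR, SE 0.04) with UPF1 knockdown. Both calls were lost with the trends removed, where the adjusted p of edgeR was 0.0305 for TRIM44 and 0.0263 for CDK6. CBX5, the heterochromatin protein HP1 alpha (10813 bases, -0.14), MED28, a Mediator subunit (10307 bases, -0.07), and NUDT3, a Nudix hydrolase (9074 bases, -0.07), were not called with UPF1 knockdown. None of the 5 was called with DHX34 knockdown. Of the 5 members highest in SCR, EIF1AX at -0.24 (adjusted p = 9.67e-05 in edgeR, SE 0.03) and SPCS3 at -0.13 (adjusted p = 0.00213 in edgeR, SE 0.03) fell with UPF1 knockdown, and MTPN, CRKL and NUCKS1 had log2 fold changes of 0.05, 0.10 and -0.002 with no call. The call of SPCS3 held in only 1 of the 6 fits without 1 library, and that of EIF1AX in all 6.

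Across members the length of the 3′ UTR and the log2 fold change were only weakly related, with a Spearman correlation of 0.07 for UPF1, 0.04 for DHX34 and 0.02 between the knockdowns over the 832 members. The correlation with the length of the coding part was larger, at 0.18, 0.32 and -0.11. It was -0.18, -0.22 and 0.01 with the SCR level and 0.10, 0.20 and -0.08 with GC content. These are descriptions over genes that share 9 libraries, their depth and their base composition.

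Over coding transcripts of all 3′ UTR lengths the share called up with UPF1 knockdown rose with the 3′ UTR, from 8.68% of those under 500 bases to 14%, 19.8% and 24.4% in the classes that end below 1000, 2000 and 3000 bases. In the members it was 27.7% of 375 with 3000 to below 4000 bases, 28% of 318 with 4000 to below 6000 and 28.8% of 139 with 6000 or more, so within the members the share hardly moved. The share called down went from 34.5% of the shortest class to 8%, 5.97% and 9.35% in the members. The same classes differ in median transcript length, from 1479 to 9321 bases, and in median GC content, from 53.5% to 41%. With those trends removed the share called up was 9.19% in the shortest class, 19.5% at 2000 to below 3000 bases and 18.9%, 17.9% and 15.8% in the members, and the share called down was 32.0% in the shortest class and 19.5%, 12.9% and 20.1% in the members. For DHX34 the members' shares called up were 10.7%, 16.4% and 10.8%, and 7.2%, 9.75% and 5.76% with the trends removed, beside 5.95% and 4.96% in the shortest class. In the class just outside the limit, of 2000 to below 3000 bases, they were 12.3% and 6.02%, and at 1000 to below 2000 bases 9.81% and 5.51%.

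**Figure D2:**
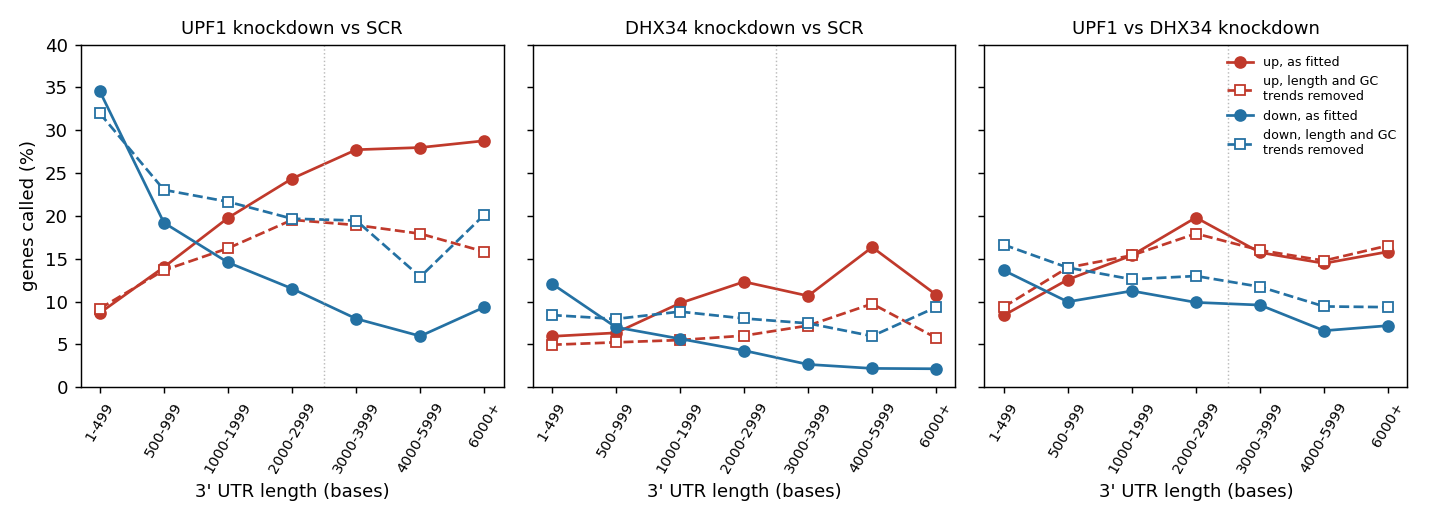
Share of genes called up or down (percent, vertical axis) by 3′ UTR length of the chosen transcript (bases, horizontal axis) in each comparison, as fitted (filled, solid lines) and with length and GC trends removed (open, dashed lines); the dotted line marks 3000 bases. The rise of the share called up with UPF1 knockdown from 8.68% to 28.8% is flatter, from 9.19% to 15.8%, once the trends are removed.

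Length-matched pairs compared long with short 3′ UTRs at like transcript length, though GC content, coding length and exon number stayed apart. With UPF1 knockdown 44 of the 187 paired members were called up and 21 down, and of their 187 short partners 33 and 15. The medians were 0.04 and 0.05 on the log2 scale. With DHX34 knockdown fewer members than partners were called up: 15 members were up and 5 down, against 37 and 2 of the short partners, with medians of 0.03 and 0.14. Between the knockdowns, where no library had a part in the choice, 31 members were higher with UPF1 knockdown and 10 lower, and of the partners 6 were higher and 38 lower, with medians of 0.01 and -0.06. With the length and GC trends removed the matched counts came to 11 members up and 15 down against 15 and 10 partners for DHX34, 33 and 38 against 19 and 37 for UPF1, and 30 and 17 against 8 and 33 between the knockdowns. In the 152 pairs matched on GC content as well they were 22 and 3 against 28 and 0, 41 and 13 against 30 and 6, and 24 and 20 against 4 and 26.

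The counts in the pairs shifted with single libraries and were a description added after the data had been seen. Leaving out 1 library at a time gave 22 to 34 members higher and 6 to 20 lower between the knockdowns, and 5 to 11 partners higher and 21 to 52 lower. The partners called came to 5 and 21 without UPF1 knockdown replicate 1 and to 5 and 23 without replicate 2. With DHX34 knockdown against SCR the same procedure gave 8 to 11 members up and 18 to 38 partners up. The members' count fell to 8 without SCR replicate 1, SCR replicate 2 or DHX34 knockdown replicate 1, and to 9 without SCR replicate 3 or DHX34 knockdown replicate 2. The partners' count fell to 18 without SCR replicate 1, SCR replicate 3 or DHX34 knockdown replicate 1 and to 23 without DHX34 knockdown replicate 2. With UPF1 knockdown against SCR the partners called up were 17 without UPF1 knockdown replicate 1, 15 without replicate 2 and 19 without SCR replicate 1, where 19 were also called down. The members called down there were 12 without UPF1 knockdown replicate 1 and 10 without replicate 2. Between the knockdowns, without DHX34 knockdown replicate 3, 34 members were higher and 20 lower, and 11 partners higher and 52 lower.

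A score for each library put the same pairs on 1 scale. It is the median over the 187 members of the gene's log2 CPM, centered on its mean over the 9 libraries, minus the same median over the 187 partners. It was 0.02, 0.0043 and 0.07 in the SCR libraries, -0.05, -0.05 and -0.13 upon DHX34 and 0.01, 0.02 and 0.06 upon UPF1 knockdown. All 3 DHX34 knockdown libraries lay below all 6 others, which overlapped each other. The means were 0.03 ± 0.03, -0.08 ± 0.05 and 0.03 ± 0.02 (SD, n = 3), giving a difference of -0.11 for DHX34 against SCR, 0.11 for UPF1 against DHX34 and -0.0048 for UPF1 against SCR, the last well inside the spread between replicates. DHX34 knockdown replicate 3 lay farthest out, and without it the difference from SCR was -0.08.

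The members and their partners were also read separately. In the paired members the centered medians were -0.03 ± 0.04 in SCR, -0.01 ± 0.01 upon DHX34 and 0.02 ± 0.02 upon UPF1 knockdown (SD, n = 3). In the short partners they were -0.06 ± 0.03, 0.07 ± 0.04 and -0.01 ± 0.01. As fitted, the difference between DHX34 knockdown and SCR was 0.02 in the members and 0.13 in the partners. With the length and GC trends removed it was -0.03 in the members and 0.02 in the partners, and in the pairs matched on GC content too -0.04 and 0.03. Which side of the score moved thus depended on the trends. In the 152 pairs matched on GC content too, the differences of the score were -0.09 for DHX34 against SCR, 0.08 for UPF1 against DHX34 and -0.01 for UPF1 against SCR. With the length and GC trends removed they were -0.05, 0.05 and -0.00039 in the 187 pairs.

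**Figure D3:**
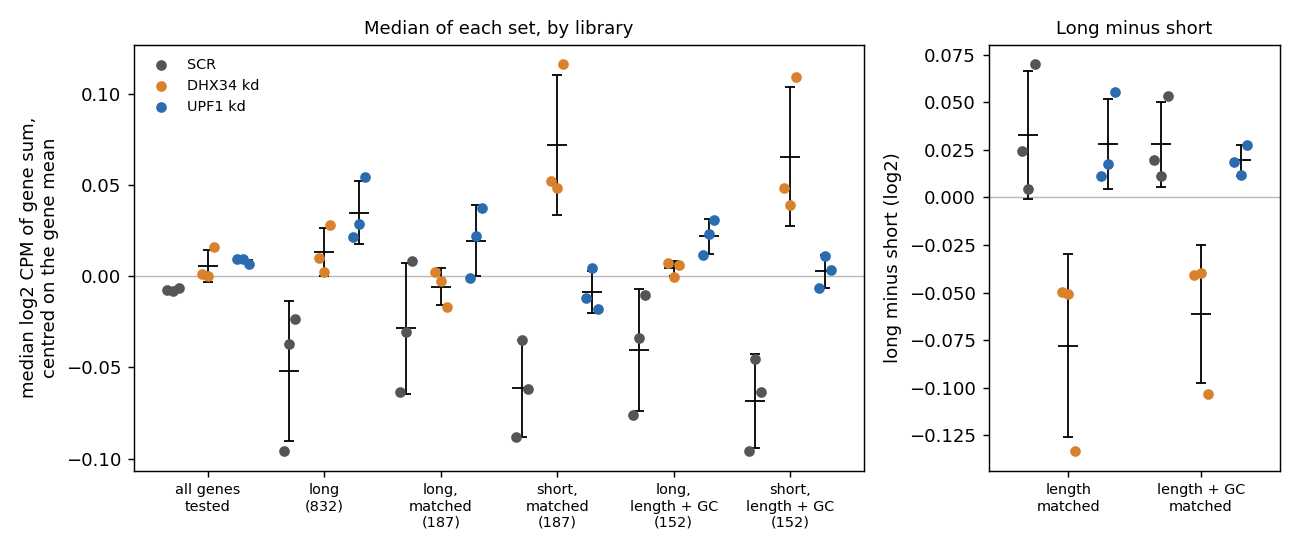
Left, median over each set of genes of the centered log2 CPM of the gene sum (vertical axis, log2 units) in each library; right, the median of the members minus that of their short partners. Points are libraries, bars the mean and SD of 3; the 3 DHX34 knockdown libraries are below 0 at right, at -0.05, -0.05 and -0.13 in the length-matched pairs, and the SCR and UPF1 knockdown libraries are above 0.

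Single classes of transcript length gave a like picture. Among transcripts of 5000 to below 7000 bases, UPF1 knockdown raised 24.6% of 350 members and 14% of 50 transcripts with a short 3′ UTR, with medians of 0.06 and 0.06. At 7000 bases and more it raised 33.1% of 308 members and 54.5% of 22 short ones, with medians of 0.11 and 0.18. With DHX34 knockdown the members' share called up was lower than that of the short transcripts in each length class, at 12.6% against 18% for 5000 to below 7000 bases and 14.6% against 40.9% above. The classes from 3000 to below 4000 bases, with 19 members, and from 7000 bases, with 22 short transcripts, are thinly filled.

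**Figure D4:**
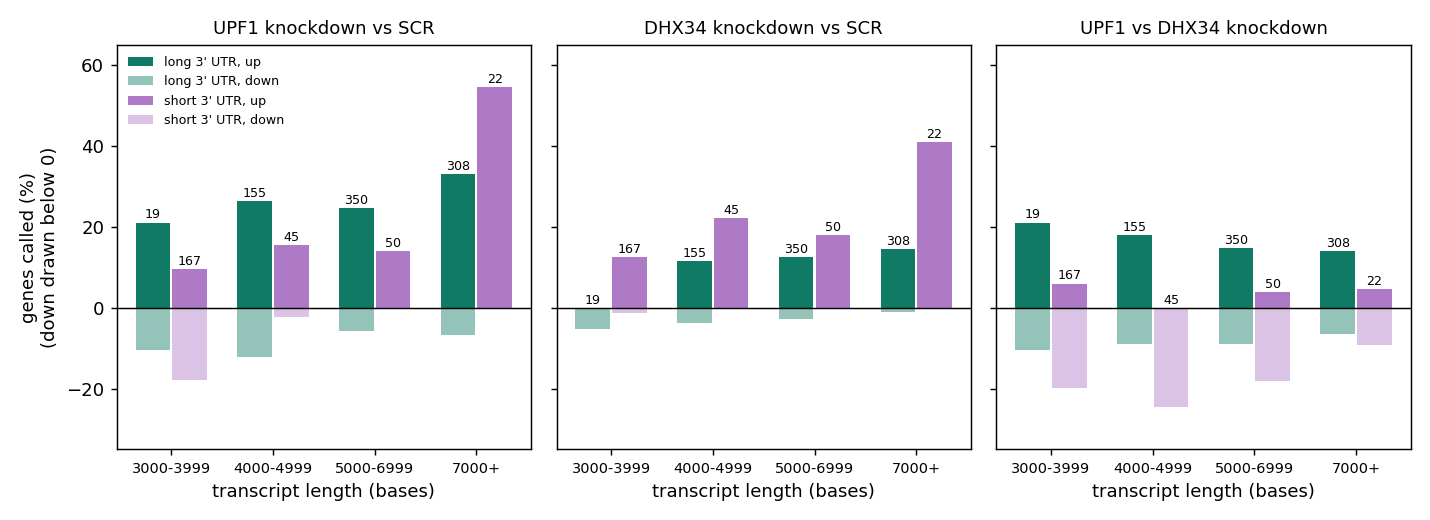
Share of genes called up (bars above 0) or down (bars below 0), in percent, by transcript length (bases, horizontal axis) for transcripts with long and short 3′ UTRs; numbers over the bars are the transcripts in each class. In the DHX34 knockdown the short transcripts have the higher share called up in each class, for example 40.9% against 14.6% at 7000 bases and more.

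TPM of the single transcript, which carries the 3′ UTR itself, gave scores of like size: the difference of members and partners was -0.02 for UPF1 against SCR, -0.14 for DHX34 against SCR and 0.12 for UPF1 against DHX34 on the log2(TPM + 0.5) scale. On this scale the median over all genes' chosen transcripts itself lay higher by 0.13 with UPF1 and by 0.12 with DHX34 knockdown than in SCR, so a TPM is best read against that shift. In edgeR fits of single transcripts 32 members were called up and 13 down with UPF1 knockdown, beside 0.97% and 1.62% of 62497 transcripts. The genes of all 32 and of 12 of the 13 were also called the same way as sums. With DHX34 knockdown edgeR called 0 of the 832, beside 0.0348% up and 0.0116% down of 60416 (0.0463% in all), although 324 had an unadjusted p under 0.05, beside 15.2% of all transcripts, and DESeq2 called 70 up and 25 down, beside 2.05% and 2.45% of the 51751 to which it gave an adjusted p. Between the knockdowns 20 were higher with UPF1 knockdown and 13 lower, beside 0.732% and 0.32% of 64325 (1.05% in all). Without any 1 of the 6 libraries edgeR called 0 to 8 members with UPF1 knockdown and 0 to 13 between the knockdowns, so these counts of single transcripts need all 6 libraries.

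Some genes make both a long and a short form, which allows a comparison inside a gene. In 367 genes, 137 of them genes of members, coding transcripts with a 3′ UTR of 3000 bases or more and with one under 1000 bases were both present at a mean of 1 TPM over the 9 libraries. The median log2 ratio of long to short forms was -0.42, -0.38 and -0.45 in the SCR libraries, -0.54, -0.49 and -0.51 upon DHX34 and -0.41, -0.49 and -0.43 upon UPF1 knockdown. The means were -0.42 ± 0.03, -0.51 ± 0.03 and -0.44 ± 0.04 (SD, n = 3). The DHX34 knockdown libraries lay below those of both other groups, although the nearest of them and of the UPF1 knockdown both round to -0.49, and SCR and the UPF1 knockdown overlapped.

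Gene by gene, the ratio was lower in all 3 DHX34 knockdown libraries than in all 3 SCR libraries in 83 of the 367 genes (22.6%) and higher in 31 (8.45%). In the 137 member genes it was lower in 42 (30.7%) and higher in 7 (5.11%), but their long form had been chosen as the highest in SCR. Against the DHX34 knockdown, in a comparison free of that choice, the UPF1 knockdown had the higher ratio in 22 of the 137 (16.1%) and the lower in 4 (2.92%), beside 22.9% and 6.81% of the 367. With UPF1 knockdown against SCR the counts over the 367 were 70 higher (19.1%) and 57 lower (15.5%), with no clear direction. The member genes counted 13 higher and 27 lower there. These ratios rest on how salmon divided reads between forms that share sequence.

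**Figure D5:**
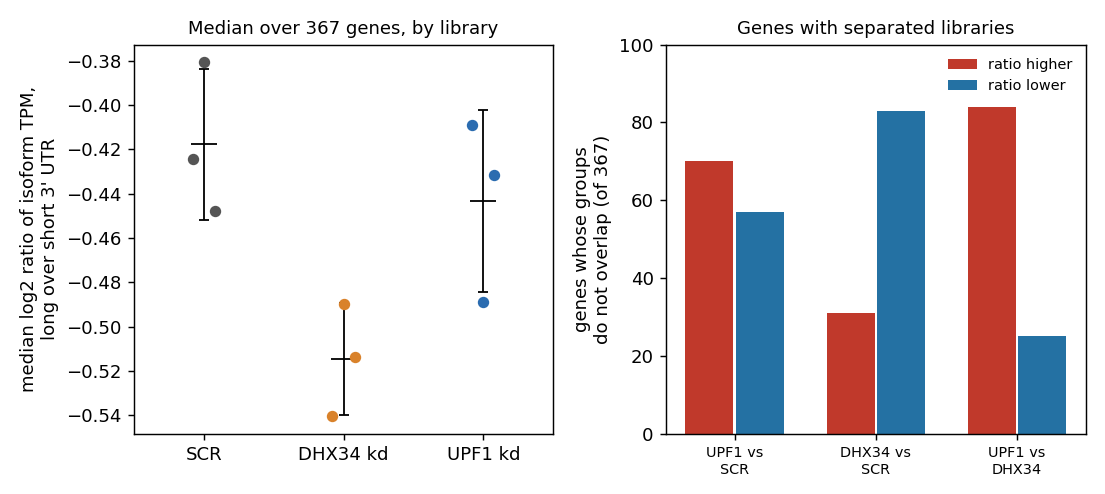
Left, median log2 ratio over 367 genes, TPM of forms with long to forms with short 3′ UTRs (vertical axis) in each library, with the mean and SD of 3; right, the number of genes in which the libraries of the 2 groups do not overlap. The DHX34 knockdown libraries lie lowest, between -0.54 and -0.49, and 84 genes had a higher ratio with UPF1 than with DHX34 knockdown against 25 with a lower one.

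The members called up and down with UPF1 knockdown differed from each other in build more than in their 3′ UTR. The 233 that rose had a median 3′ UTR of 4220 bases, 12 exons, a GC content of 44.7% and 4.65 TPM in SCR, and the 62 that fell 4180 bases, 7 exons, 40.9% and 10.9 TPM. With DHX34 knockdown the medians were 4277 bases, 11 exons and 45.9% for the 107 that rose and 4044 bases, 6 exons and 42.3% for the 20 that fell. Split by GC content, UPF1 knockdown raised 68 of 290 members under 40% and 57 of 176 with 50% or more, and DHX34 knockdown 21 and 38 of the same. Members higher with UPF1 than with DHX34 knockdown had a median GC content of 43.4% and those lower 48.1%.

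Named groups of genes held few members, and their members are given with the whole group. Each group below is to be read beside all genes tested. Of those 12.4% were called up and 12.9% down with UPF1 knockdown, and 5.54% up and 4.86% down with DHX34 knockdown. No group was tested as a set. Of 12 NMD factors 8 were called up and 1, UPF1 itself, down with UPF1 knockdown, and 0 up and 1, DHX34 itself, down with DHX34 knockdown. SMG1, the kinase that phosphorylates UPF1, was the member among them, with a 3′ UTR of 4709 bases. It had 102, 108 and 100.1 CPM in SCR, 112, 112 and 134 upon DHX34 and 171, 151 and 159 upon UPF1 knockdown. The UPF1 knockdown lay above both other groups, with a log2 fold change of 0.62 (adjusted p = 1.16e-06 in edgeR, SE 0.05), but SMG1 has near-identical pseudogenes with which it can share reads, so its level is uncertain. Other factors have shorter 3′ UTRs, for example UPF2 at 0.51 (edgeR adjusted p = 2.80e-06) and SMG5 at 0.51 (edgeR adjusted p = 2.70e-07), which rose as well.

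Of 28 factors that bind 3′ UTRs or degrade mRNA 5 were called up and 5 down with UPF1 knockdown, and 2 up and 0 down with DHX34 knockdown. Of these 7 were members: AGO1, AGO2, CNOT6, CNOT6L, XRN1, LIN28B and CPEB4. XRN1, the exonuclease that degrades decapped mRNA, rose in both, from 27.5, 29.7 and 30.4 CPM in SCR to 36.4, 36.4 and 34.4 with DHX34 and 37.3, 35.4 and 39.3 with UPF1 knockdown. Its log2 fold changes were 0.29 (adjusted p = 0.0024 in edgeR, SE 0.05) and 0.35 (adjusted p = 0.000205 in edgeR, SE 0.05), and that with DHX34 was called in 1 of the 6 fits without a library and lost with the trends removed. CPEB4, which regulates poly(A) tail length, was at 37 ± 1.45 CPM in SCR and 29.6 ± 0.964 in the UPF1 knockdown (n = 3, SD) and its log2 fold change -0.33 (adjusted p = 0.000125 in edgeR, SE 0.05). AGO1 and AGO2, the Argonautes that carry microRNAs, had 3′ UTRs of 10925 and 11888 bases and log2 fold changes of 0.15 and 0.06 with UPF1 knockdown, neither called.

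Of 18 cell cycle regulators 3 were called up and 1 down with UPF1 knockdown, and 2 up and 1 down with DHX34 knockdown. The members were CCND1, CCND2 and CDK6. CCND2 fell in both, as given above, while CCND1, with a shorter 3′ UTR of 3192 bases, was at 8.93 ± 0.269, 11 ± 0.598 and 9.56 ± 0.516 CPM in SCR, DHX34 and UPF1 knockdown (SD, n = 3) with no call. Of 21 tested genes of BCR-ABL and RAS signaling 5 were called up and 0 down with UPF1 knockdown, and 2 up and 0 down with DHX34 knockdown. Of the 6 members GAB2, a docking adaptor, had a log2 fold change of 0.23 (adjusted p = 0.00106 in edgeR, SE 0.04) with UPF1 and -0.18 (adjusted p = 0.0198 in edgeR, SE 0.05) with DHX34 knockdown. PIK3R1, the regulatory subunit of PI3 kinase, rose by 0.28 (adjusted p = 0.00307 in edgeR, SE 0.06) and 0.44 (adjusted p = 0.00126 in edgeR, SE 0.07). The UPF1 calls of both were lost with the trends removed. Of the 6 fits without 1 library, the UPF1 call of GAB2 held in 2 and that of PIK3R1 in 1. The DHX34 call of PIK3R1 held in 3. CRKL, CBL, NF1 and IRS2 were called in neither, with log2 fold changes of 0.10, -0.01, 0.06 and -0.08 for UPF1.

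Of 19 tested hematopoietic transcription factors 3 were called up and 6 down with UPF1 knockdown, and 4 up and 1 down with DHX34 knockdown. RUNX1, a factor of blood stem cell identity, was the member that rose in both, from 53.8, 57 and 55.6 CPM in SCR to 64.8, 61.6 and 65.2 with DHX34 and 78.5, 78.7 and 76.7 with UPF1 knockdown. The groups did not overlap, and the log2 fold changes were 0.21 (adjusted p = 0.00451 in edgeR, SE 0.04) and 0.49 (adjusted p = 9.30e-07 in edgeR, SE 0.04). The member form held 33.8% of the TPM of RUNX1 in SCR, and the call with DHX34 was lost in each of the 6 fits without 1 library. KLF13, a zinc finger factor, rose with DHX34 knockdown by 0.35 (adjusted p = 0.00243 in edgeR, SE 0.06) and TAL1 and SOX6 were called in neither, at -0.06 and -0.05 with UPF1. Of 21 tested ubiquitin ligases 5 were up and 1 down with UPF1 knockdown, and 3 up and 0 down with DHX34 knockdown. RNF144A at 0.46 (adjusted p = 7.96e-05 in edgeR, SE 0.06) and SMURF1 at 0.19 (adjusted p = 0.00126 in edgeR, SE 0.04) rose with UPF1 and KLHL15 at 0.40 (adjusted p = 0.00492 in edgeR, SE 0.08) with DHX34 knockdown, and XIAP, TRIM33 and ZNRF3 were called in neither. With the trends removed the calls of SMURF1 with UPF1 and of KLF13, KLHL15 and RUNX1 with DHX34 knockdown were lost. Of the 6 fits without 1 library, those of SMURF1, KLF13 and KLHL15 held in 3, 2 and 1.

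The list of 22 transporters and membrane traffic proteins held 9 members, a number set by which genes were listed. With UPF1 knockdown 7 of the 22 were up and 6 down, and of the 9 members 5 were up and 2 down. With DHX34 knockdown 0 of the 22 passed in either direction by edgeR. SLC7A11, the cystine transporter, had 33, 36.4 and 34.1 CPM in SCR, 35.8, 38.4 and 37.3 upon DHX34 and 49.5, 51.5 and 53.3 upon UPF1 knockdown. The UPF1 knockdown lay above both others, by 0.57 (adjusted p = 2.31e-06 in edgeR, SE 0.05) over SCR and 0.48 (adjusted p = 1.21e-05 in edgeR, SE 0.04) over the DHX34 knockdown. The amino acid transporters SLC7A1 and SLC38A1 rose by 0.26 and 0.23, TMEM245 by 0.36 and the small GTPase RAB14 by 0.16 on the log2 scale, and the calls of SLC7A1, SLC38A1 and RAB14 were lost with the trends removed. The endosomal GTPase RAB22A and the Golgi lipid-binding protein PLEKHA3 had log2 fold changes of -0.32 and -0.28. Of the 6 fits without 1 library, the call of PLEKHA3 held in 2 and that of RAB14 in 1. LRRC58 and the syntaxin STX6 were not called, at -0.0034 and -0.12.

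Members nearest the 3000-base limit are given with the transcripts just outside it, with no test. Just inside were ZNF398, a zinc finger protein, with 3001 bases and log2 fold changes of 0.11 with UPF1 and 0.24 with DHX34 knockdown, PLBD2, a lysosomal protein, with 3003 bases and 0.29 and 0.40, and SZRD1 with 3005 bases and 0.001 and -0.11. Just outside were LZTFL1, a regulator of ciliary trafficking, with 2998 bases and 0.04 and -0.27, XPOT, the tRNA exporter, with 2994 bases and 0.12 and -0.03, and SPAST, the microtubule-severing enzyme spastin, with 2986 bases and -0.85 and -0.91.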

How the data were processed

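RNA-seq of 9 K562 libraries was deposited as 1 table per library with transcript TPM and expected counts, which the authors estimated with salmon 1.5.2 (with GC bias correction) on Ensembl 93 transcripts. Effective lengths in bases were deposited in the same tables. The deposited tables of the authors' own comparisons (sleuth and SUPPA2 p-values, q-values and effects) were not used.

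Transcripts were joined by ID to GENCODE release 44 on GRCh38, which matched 97.9% of the transcripts and 98.1% of the counts of each library. Length was identical for 85.8% of those matched and within 100 bases for 92.4%. Groups came from the sample labels. Expected counts were summed per gene, rounded and tested with edgeR 4.0.16 (quasi-likelihood test, TMM scaling, filterByExpr with a minimum count of 10, Benjamini-Hochberg adjustment over all genes tested, 6 libraries per fit), and called at an adjusted p of at most 0.005. Rounded counts of single transcripts were tested in the same way. Length and GC trends were removed with a loess curve of span 0.3 per library. DESeq2 1.42.0 was an alternative. The edgeR fit of gene sums was tested on counts simulated from the UPF1 knockdown and SCR libraries. Scores used log2 CPM with a prior count of 1, or log2(TPM + 0.5), and carry no p. An exact permutation test of 3 libraries against 3 cannot give a p below 0.1.

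Named genes were those with the 8 largest rises and 8 largest falls against SCR (5 and 5 between the knockdowns) among members called, not overlapping and at a mean of 5 CPM or more. The 5 longest at 10 TPM or more, the 5 highest, members of the gene lists and those nearest 3000 bases were added. Some genes that these rules name are not reported here. Members and lists were chosen with earlier results of these data known. The study calls the libraries of a group biological replicates, and p-values measure the spread between them. Replicate numbers do not pair the samples: same-numbered libraries did not deviate together.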

Additional observations from a re-analysis of the deposited data

How the results depend on the processing

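Of the alternative values of the counts and scores, 170 stayed within 1.5 times the count or 1 SD of the score and 61 did not. Counts were compared as plain numbers, also where a definition changed how many members there were. Of 42, 28 and 34 calls of named genes for UPF1 against SCR, DHX34 against SCR and UPF1 against DHX34, 33, 19 and 29 held in all 6 fits without 1 library, 33, 24 and 34 with the length and GC trends removed and 42, 22 and 32 with the replicate block, and none of the calls turned its sign. The counts of members called as gene sums were 295 for UPF1 against SCR, 127 for DHX34 against SCR and 194 for UPF1 against DHX34. In the same order they were 174, 66 and 94 with counts scaled for length and 456, 312 and 357 at an adjusted p of at most 0.05 in edgeR. Other definitions changed the number of members too, so their counts do not compare directly with those of the 832. They gave 563, 251 and 416 of 1579 members with 3′ UTRs of 2000 bases or more, and 89, 37 and 48 of 246 with 5000 or more. Where the length was identical in both annotations they gave 65, 32 and 43 of 195. Without the limit on that difference in length they were 462 of 1338 for UPF1 against SCR and 314 of 1338 between the knockdowns. Without a filter on low counts 231 were called for DHX34. With a replicate block, in which libraries of the same number are paired by number only, 84 were called for DHX34, 43 with the trends also removed, and 0 single transcripts for UPF1 against SCR and between the knockdowns. Single transcripts called numbered 45, 0 and 33. They were 165, 95 and 140 with DESeq2 and 209, 73 and 151 at an adjusted p of at most 0.05 in edgeR, and 2 for DHX34 without a filter.

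Leaving out 1 library gave 203 to 249, 66 to 112 and 125 to 250 gene sums, and 0 to 8, 0 to 0 and 0 to 13 single transcripts. For single transcripts each of the 6 libraries moved the count of UPF1 against SCR by more than 1.5 times.

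The score of members minus partners in gene sums was 0.198 for UPF1 against SCR, 0.138 for DHX34 against SCR and 0.0601 between the knockdowns without matching, so matching turned the direction for DHX34. With the trends removed it was -0.0519 for DHX34 and 0.0515 between the knockdowns, and with 5000 bases or more it was -0.0404 for UPF1. In TPM it was 0.229 for UPF1 and 0.127 for DHX34 without matching, -0.0954 for UPF1 with 5000 bases or more, and 0.0180 for UPF1 and -0.0765 for DHX34 without the limit on length. The within-gene ratio was 0.0145 for UPF1 against SCR and 0.129 between the knockdowns at a mean of at least 5 TPM, and -0.164 for DHX34 with a short limit of 500 bases. Without 1 library the gene sum scores were -0.0192 to 0.0138, -0.125 to -0.0832 and 0.0784 to 0.120, the TPM scores -0.0424 to -0.00986, -0.159 to -0.111 and 0.0875 to 0.132, and the ratios -0.0426 to -0.00275, -0.112 to -0.0785 and 0.0544 to 0.0942. The cause of these shifts was not tested.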
